A study of Mus musculus with 12 samples.

Results

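The hippocampus of mice that had been separated from their mothers as pups was compared with that of undisturbed mice, by RNA-Seq of 3 stress and 3 control males at postnatal day 70. All genes whose deposited transcript values summed to a mean of 1 or more over the 12 mice of the study were described, which kept 14455 of 35580 genes. From postnatal day 2 to 14 the stress pups spent 3 h of each day alone, away from dam and litter, control pups stayed with the dam, and the dams of both groups drank only water during pregnancy. The other 6 mice of the study came from dams that chose between water and 10% ethanol throughout gestation and, by the methods, for some days after birth that overlapped the days of separation, 3 of them also separated (ethanol + stress) and 3 not (ethanol), and they serve here as the only other measurement of separation. All mice were C57BL/6 by the labels and C57BL/6J by the methods, each library held the hippocampus of 1 mouse, and the methods state that part of each litter was taken for stress, so that sibs may stand in several groups, although the labels tie no stress mouse to a control mouse.

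Maternal separation is used as a model of early life stress. Removing the dam activates the stress axis of the pup, in which hypothalamic corticotropin-releasing hormone drives pituitary and adrenal output, and the corticosteroid released acts through the glucocorticoid and mineralocorticoid receptors. The hippocampus is rich in both receptors and takes part in ending the hormonal response, which is why its adult expression of those receptors, of their co-chaperone Fkbp5 and of the neurotrophin Bdnf is often read after early stress.

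The values are TPM, an abundance per transcript that allows for its length, which the authors had scaled between libraries. The 6 libraries summed to between 917170 and 1024268 and held an estimated 12040000 to 14900000 read pairs, with stress mouse 2 at the shortest estimated fragment length of 190 bp. Across genes, the stress mice correlated no better with each other (mean r of 0.9775 to 0.9785) than with the control mice (0.9782 to 0.9814), and no library stood apart. Markers of hippocampal neurons were present in every mouse: Prox1, a dentate granule cell transcription factor, was at 13.7 to 14.7 in control and 14.7 to 20.9 in stress mice (0.23 ± 0.14 on the log2 scale, separated higher but not called), and Neurod6, a pyramidal cell transcription factor, was at 109 to 129 and 113 to 120. Transthyretin (Ttr), the main product of the choroid plexus, was also present in every mouse, at 591 to 1780 in control and 1600 to 5100 in stress mice.

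Few genes differed between stress and control mice. With limma on log2(TPM + 0.5) in a model of all 4 groups, 48 of 14455 genes (0.332%) had an unadjusted p under 0.01 and are named called genes here, 31 higher (0.214%) and 17 lower (0.118%) after separation. Where no gene differs, that threshold is passed by about 145 of 14455 genes. No gene had an adjusted p under 0.05, the lowest adjusted p being 1, so that each fold change of stress against control given below has an adjusted p of 1, and 243 genes (1.68%) had an unadjusted p under 0.05. By estimated read pairs, scaled to the total of each library, in place of summed TPM, 21 genes were called and 169 had a p under 0.05, and again no adjusted p fell under 0.05, the lowest being 1. In 951 genes (6.58%) the 3 stress values all lay on one side of the 3 control values, 501 of them above (3.47%) and 450 below (3.11%), a share above of 52.7% that became 43.4% when the libraries were rescaled to a common total, and 45 of the 48 called genes were among these.

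The data bound how large a change could have been missed. The median log2 fold change of all genes was 0.003 and the median size of a change 0.071, and 358 genes (2.48%) moved by more than 1.5-fold. Of the 9320 genes with a mean of 10 or more, 44 moved by more than 1.5-fold and 12 were called. The 95% interval of the change lay inside 1.5-fold in either direction for 10580 genes (73.2%), inside 2-fold for 13389 (92.6%), and inside 1.5-fold for 89.9% of genes with a mean of 10 or more. These intervals are not adjusted for the number of genes. An exact permutation test of 3 against 3 mice cannot give a p below 0.1 for any single gene. The calls rest on limma, which assumes normal values. It takes the spread of a gene from all 4 groups, ethanol-exposed mice included, and moderates it over genes. In the plot of all genes the called genes lie mostly at low abundance.

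**Figure D1:**
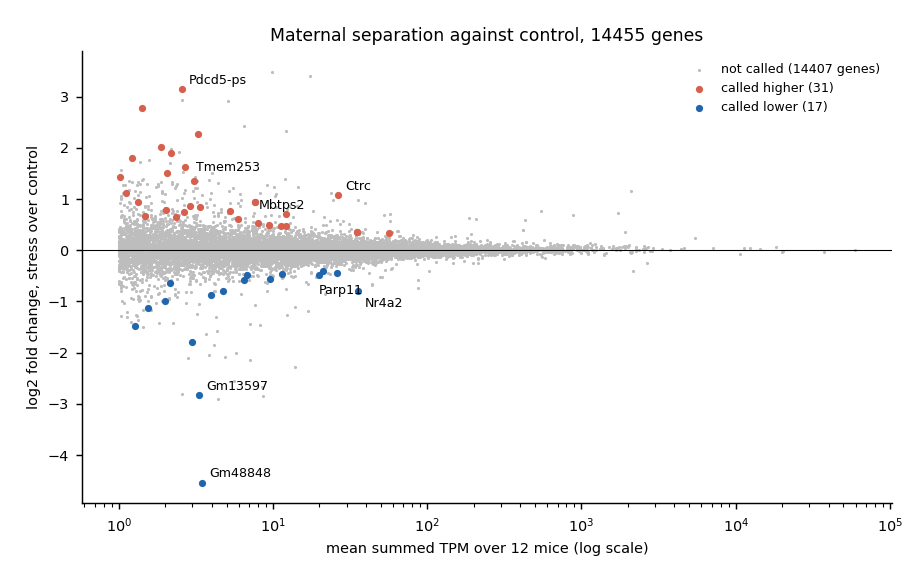
Each point is 1 of 14455 genes, with its mean summed TPM over 12 mice on a log axis and its log2 fold change of stress over control on the linear axis. The 31 genes called higher are red and the 17 called lower blue, and the cloud narrows toward abundant genes, where few called genes lie.

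Among the 12 higher protein-coding genes with the smallest p, Mbtps2 and Mbd5 were among those with little spread within the groups. Mbtps2 encodes the site-2 protease, a Golgi membrane enzyme that releases the transcription factors SREBP and ATF6. It was at 9.19, 9.48 and 9.95 in control mice and at 13.4, 12.9 and 14.2 in stress mice, a log2 fold change of 0.48 ± 0.09 (SE). The groups were well apart and the call held without any 1 of the 6 mice, yet by estimated read pairs the log2 fold change was 0.14 ± 0.09 and not called. The difference lay partly in a 529 bp coding transcript that was listed at 0 in every control mouse and at 2.82, 2.04 and 1.24 in the stress mice, and that carried 51.8% of the change in the sum.

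Mbd5, of the methyl-CpG-binding domain family, was the only called member of the list of DNA methylation writers, readers and erasers. It was at 29.4, 29.0 and 34.9 in control and at 41.6, 37.1 and 40.4 in stress mice (0.35 ± 0.09), against 0.08 by read pairs. All 3 stress mice were above all 3 control mice on the TPM scale, and on the read pair scale the groups overlapped. The call was lost when the libraries were rescaled to a common total and without control mouse 1, control mouse 2 or stress mouse 1, with log2 fold changes of 0.3 to 0.43 over the fits without 1 mouse.

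Of the 12 higher genes, 4 were called on both scales: Tmem253, Ctrc, Zfp972 and Tcea3. In these 4 genes the 6 ethanol-exposed mice, 3 of them never separated, also lay above every control mouse. Their values there were 3.12 to 4.78, 22.9 to 49.4, 1.47 to 3.63 and 1.08 to 2.64, in that order.
Ctrc encodes chymotrypsin C, a digestive protease of the pancreas. It was at 12.6, 14.5 and 10.9 in control and 20.6, 29.3 and 32.8 in stress mice, a fold of 2.1 (log2 1.07 ± 0.28; read pairs 0.85). Its whole value came from a 310 bp transcript of 2 exons annotated as noncoding, so that the reads do not show the protease's coding RNA, and its call was lost without control mouse 3 or stress mouse 3.
Tmem253, a predicted membrane protein, was at 0.233, 0.419 and 0.741 in control and 4.43, 1.63 and 1.79 in stress mice (log2 1.62 ± 0.31; read pairs 0.61). It was counted by only 1.99 to 12.1 read pairs in these mice, and its call held without any 1 of them.
Tcea3, a transcription elongation factor of the TFIIS family, was at 0.867, 0.761 and 0.472 against 1.58, 1.75 and 2.08 (0.95 ± 0.28; read pairs 0.73). The zinc finger gene Zfp972 was at 0.0255, 1.08 and 0.973 against 2.76, 2.46 and 2.4 (1.51 ± 0.4; read pairs 0.72). The highest library of the 6 held 15.9 read pairs of Tcea3 and 8.57 of Zfp972, so that both rest on few reads. The call of Tcea3 was lost without control mouse 2, control mouse 3, stress mouse 2 or stress mouse 3, and that of Zfp972 without stress mouse 1. With a pseudocount of 0.5 pairs, smaller than that behind the values above, the changes in read pairs were 1.16 for Ctrc, 1.26 for Tmem253, 1.22 for Tcea3 and 2.06 for Zfp972, all called.

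Other higher genes of the 12 were Gm21860, Gm21748, Megf6, Fancm and Entpd1, with log2 fold changes of 0.47 to 0.95, none of them called by read pairs. Gm21860 and Gm21748 lie on the Y chromosome and had identical values in every mouse, 3.43 to 5.19 in control and 6.22 to 12.9 in stress mice. They are read here as 1 uncertain result, although the counts of genes include both. How reads were assigned between them was not tested. Fancm, a DNA translocase of the Fanconi anaemia pathway, was at 6.96 to 8.14 and 9.52 to 11.6 (0.53 ± 0.15) and stood at 0.02 by read pairs. Entpd1, also known as CD39, which degrades extracellular ATP, was at 7.26 to 10.5 and 11.1 to 14.0 (0.47 ± 0.14) and stood at 0.04 by read pairs. The ethanol-exposed mice, separated or not, also lay above every control mouse for Entpd1 (11.3 to 14.9) and for Gm21860 and Gm21748 (6.56 to 11.8). For Megf6 and Fancm they overlapped the control mice.

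Among the 12 lower protein-coding genes with the smallest p, Parp11 and Nr4a2 were the most abundant. Parp11 encodes a mono-ADP-ribosyltransferase. It was at 28.4, 31.8 and 30.1 in control and 23.1, 19.5 and 23.7 in stress mice, a log2 fold change of -0.44 ± 0.09. No stress mouse reached the lowest control mouse and the call held without any 1 mouse, while by read pairs the change was -0.17. It was spread over several transcripts, of which a 733 bp coding transcript carried 36.4%.

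Nr4a2, also known as Nurr1, is an orphan nuclear receptor of the immediate early class. It was at 48.1, 44.2 and 37.8 in control and 20.4, 28.3 and 26.0 in stress mice (-0.79 ± 0.23). Its groups did not overlap in TPM and did overlap in read pairs, by which the change was -0.25. A 182 bp noncoding transcript, at 21.6, 20.5 and 9.46 in control and 0, 6.76 and 2.68 in stress mice, made up 76% of the change in TPM, and without it the sums of the other transcripts averaged 26.2 and 21.8. The call was lost when the libraries were rescaled to a common total, with the replicate number as a block, and without control mouse 1, control mouse 2, stress mouse 1 or stress mouse 3, with log2 fold changes of -0.89 to -0.66 over the fits without 1 mouse.

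The other 10 lower genes had varied roles. Slc11a2, the divalent metal transporter DMT1 that carries iron out of endosomes, was at 20.1 to 27.9 in control and 15.6 to 17.6 in stress mice (-0.49 ± 0.16), and a 393 bp transcript subject to nonsense-mediated decay accounted for 68.3% of this. Apoc3, an apolipoprotein that inhibits lipoprotein lipase, was at 1.58 to 2.38 and 0.335 to 0.842 (-1.12 ± 0.3), counted by 0.99 to 4.9 read pairs. Pigz, a mannosyltransferase of GPI anchor synthesis, was at 12 to 14.4 and 7.84 to 11.3 (-0.47 ± 0.14).
Hook1, an adaptor of endosomes on microtubules, was at 19.9 to 24.8 and 16 to 19.6 (-0.40 ± 0.12). Cplx3, a complexin that binds the SNARE complex of synaptic vesicles, was at 7.52 to 9.23 and 5.29 to 5.78 (-0.59 ± 0.19). By read pairs the changes of Slc11a2, Pigz and Hook1 were -0.04, -0.04 and -0.09, and that of Cplx3 was -0.21, none of them called.
Of the 5 other lower genes, Zap70, a kinase of T cell receptor signalling, fell by 0.87 on the log2 scale, the interferon-induced Ifitm7 by 1, 4930469K13Rik by 1.47, the mitochondrial rRNA methyltransferase Mrm1 by 0.57 and Gm21994 by 0.63. Of the 12 lower genes, only Gm21994 was also called by read pairs (-0.52). Of the 24 higher and lower genes, only 3, Mbtps2, Tmem253 and Parp11, stayed called without each of the 6 mice in turn. With the replicate number as a block, the calls of Slc11a2, Pigz and Cplx3 were lost, as was that of Entpd1.

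**Figure D2:**
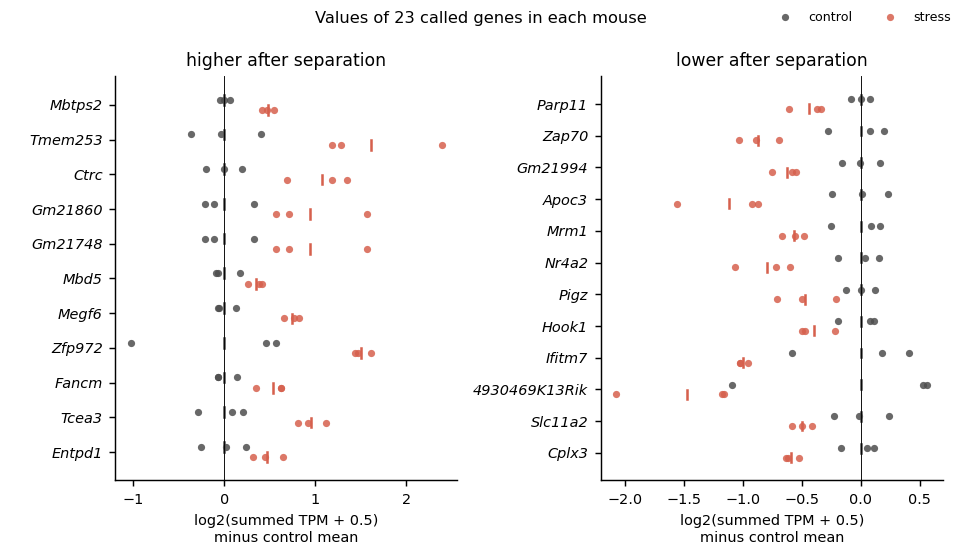
Each point is 1 mouse, with log2(summed TPM + 0.5) minus the control mean of that gene on the x axis, and vertical bars mark the group means of 3 mice. Genes were chosen for stress and control values that do not overlap, and the distance between the groups is small for Mbd5 and large for Tmem253 and Zfp972.

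Read pairs were estimated from the deposited values, so the scales share their reads. They differ in how transcripts of unequal length are weighted, in the scaling between libraries and in the pseudocount, which on the read pair scale amounts to 6.02 to 7.45 pairs and draws genes with few pairs toward 0. Across the 48 called genes the median size of the log2 fold change was 0.82 in summed TPM, 0.39 in read pairs and 0.73 in read pairs with a smaller pseudocount of 0.5 pairs, a setting added after seeing the data. In the 16 called genes with 1 transcript, where the weighting of unequal transcripts cannot matter, it was 1.81, 0.51 and 1.7. The length of that transcript still sets how many read pairs 0.5 TPM amounts to. In the 13 with several transcripts and 100 or more pairs in each of the 6 mice, where the pseudocount matters little, it was 0.48, 0.09 and 0.09. The sign was the same in 47, the exception being Rps6kb2, an S6 kinase gene named here after its value was seen, at -0.79 in TPM and 0.15 in read pairs. The change in read pairs was less than 1/2 of that in TPM in 34 genes, and in 17 with the smaller pseudocount, all of which have several transcripts. In 28 genes the mice stayed separated by read pairs, and 10 were called both in TPM and in read pairs, all of them with either pseudocount. Of the 35 protein-coding called genes, 32 have several transcripts, and in 27 of these 32 the transcript that moved most was shorter than 1000 bp. Over all 32 genes the median length of the transcript that moved most was 478 bp, against 3283 bp for the longest transcript detected from the same genes, and 13 were annotated as protein-coding, 13 as noncoding processed transcripts, 3 as retained introns and 3 as targets of nonsense-mediated decay. A short transcript turns few read pairs into many TPM, and its estimated read pairs are also the least certain. What moved these short transcripts was not tested.

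Of 382 processed pseudogenes 13 were called (3.4%), against 35 of 13872 protein-coding genes (0.252%) and 0.332% of all genes. None of 66 transcribed processed and 54 unprocessed pseudogenes was called, in classes too small to show a share of 0.332%. Their separated shares were 10.6% and 1.85%, against 8.64% of processed pseudogenes and 6.58% of all genes. Of the 13, Pdcd5-ps, Gm13114 and Rps23-ps2 had means under 1 in every group but stress. They passed the filter only through the group where they were high, so that the 3.4% depends in part on the filter. Of these 13, 9 had at most 20 read pairs in each of the 6 mice, as did 20 of all 48 called genes and 766 of all genes tested (5.3%). The smallest p of the whole comparison belonged to Gm48848, a 111 bp processed pseudogene at 11.7, 9.29 and 12.8 in control mice and listed at 0 in all 3 stress mice, which at its highest corresponded to 5.17 estimated read pairs. It was also listed at 0 in 2 of 3 ethanol and in all 3 ethanol + stress mice. Gm48848 thus met the mean of 1 mainly through the control mice, where it was high. Pdcd5-ps went the other way, from 0, 0 and 1.07 to 1.31, 22.1 and 6.22, Gm15613 from 0, 0.947 and 0 to 3.11, 2.78 and 1.49, and Gm46387 from 2.15, 2.38 and 0.556 to 3.9, 5.81 and 4.26. Gm13597 and Gm14469 were lower, by 2.83 and 1.8 in log2 units. Of these 6 pseudogenes, Gm48848, Pdcd5-ps and Gm46387 were also called by read pairs (-0.76, 1.32 and 0.66, or -3.38, 3.59 and 1.51 with the pseudocount of 0.5 pairs), and with that pseudocount Gm15613 and Gm13597 were called too (2.1 and -3.28). Both scales hold the same reads and genes that passed the same filter, so that these calls are no separate support. With every stress value at 0, the size of the Gm48848 change is set by the pseudocount. Processed pseudogenes resemble the mRNA they were copied from, so that reads can be shared with the parent gene and these values are uncertain.

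Of 7 genes usually read after early life stress none was called, where 0.332% of all genes were. For 6 of them the 95% interval of the log2 fold change spanned 0, while that of Fos, described with the immediate early genes, ran from -2.29 to -0.09. The glucocorticoid receptor gene Nr3c1 was at 47.7, 51.2 and 55.2 in control and 52.3, 51.9 and 55.2 in stress mice, and the 95% interval of its log2 fold change ran from -0.14 to 0.24. The mineralocorticoid receptor gene Nr3c2 was at 88.0, 107 and 89.0 against 91, 103 and 97.3, with an interval of -0.25 to 0.33. Both intervals leave out a change of 1.5-fold in either direction.
Fkbp5, which lowers the hormone affinity of the glucocorticoid receptor, was at 27, 27.2 and 28.7 against 29.3, 36.5 and 26.1 (interval -0.21 to 0.47), with stress mouse 2 highest. Crh, the releasing hormone itself, was at 1.55 to 3.1 against 1.87 to 2.39 (-0.56 to 0.45), and its receptor Crhr1 at 5.21 to 8.06 against 6.47 to 7.86 (-0.24 to 0.6). Bdnf was at 20.6 to 23 against 18.1 to 23.7 (-0.42 to 0.31).

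The wider lists around this axis gave no called gene, against 0.332% of all genes. Of 22 tested members of the stress hormone system, 8 were higher and 14 lower, with a median log2 fold change of -0.029, and the member with the smallest p was Adcyap1, which encodes the neuropeptide PACAP. Adcyap1 was at 5.24, 5.22 and 6.3 in control and 8.01, 6.56 and 7.09 in stress mice (0.34 ± 0.15; read pairs 0.35), the only separated gene of that list, where 6.58% of all genes were separated. Of 22 glucocorticoid-induced genes, 12 were higher and 10 lower (median 0.017), and the smallest p was that of Dusp1, a MAP kinase phosphatase, at 9.4 to 13.8 and 4.33 to 9.81 (-0.64 ± 0.26). Dusp1 also belongs to the immediate early genes, described next. Among 14 neurotrophins and receptors the median was -0.036, with 1 separated gene, against 6.58% of all genes, and no call.

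Immediate early genes, which neurons transcribe within minutes of activity, were the function list with the largest shift. Of 25 tested, 20 were lower and 5 higher after separation, and the median change was -0.225 on the log2 scale, where that of all genes was 0.003. Nr4a2 was the only called member, against 0.118% of all genes called lower, and 3 members were separated, all lower, against 3.11% of all genes. The summed TPM of the list was 656.8, 644.8 and 745.5 in control and 621.5, 493.3 and 522.9 in stress mice, so that the groups did not overlap, with stress mouse 1 close to the controls.

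Several members divided the stress mice in the same way. Fos, a transcription factor of the AP-1 complex, was at 23.1, 20.2 and 30.8 in control and at 23.6, 5.37 and 8.6 in stress mice (-1.19 ± 0.5). Arc, which regulates the removal of AMPA receptors from synapses, was at 83.8, 91.1 and 134 against 91.5, 45.4 and 52.6 (-0.74 ± 0.37). Nr4a1 was at 23.7, 27.1 and 30.9 against 23.7, 10.2 and 13.1 (-0.86 ± 0.33), and Junb, another AP-1 subunit, at 58.9, 56.7 and 69.2 against 57.8, 32.0 and 41.9 (-0.52 ± 0.25). In all 4 genes stress mice 2 and 3 were below every control mouse and stress mouse 1 was within or next to the control range. By read pairs Fos, Arc, Nr4a1 and Junb gave -1.11, -0.74, -0.82 and -0.52, nearly the values in TPM, in contrast to Nr4a2. These 4 genes were chosen after their values were seen. Stress mouse 1 was the highest of the 3 stress mice in 16 of the 25 members and the lowest in 3, which were Nr4a2, Nr4a3 and Homer1.
Btg2, an antiproliferative transcriptional cofactor, was separated, at 17, 15 and 16.7 against 14.6, 9.33 and 10.5 (-0.51 ± 0.21). Other members did not share the shift: Jun was at 42 to 44 in control and 40.1 to 44 in stress mice, Homer1 at 82.1 to 89.8 and 79.9 to 87.2, and Egr3 at 19.5 to 22.5 and 19.6 to 23.8.
Without 1 mouse the list median ranged from -0.352 to -0.194. In mice exposed to ethanol, the same genes gave a sum of 538.1 to 779.9 without and 475.7 to 659.7 with separation, which overlapped.

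The promoters of Nr4a2, Fos and Btg2 are shown because many immediate early genes are switched on through the cAMP response element, CRE, bound by the factor CREB. The sequences are the 250 bases before the start of each gene in RefSeq, build GRCm38.p6, written 5′ to 3′ on the strand of the gene, with capitals on the core letters TGACG or their reverse complement CGTCA, and on TGACGTCA where the full element occurs. They lie at chr2:57124004-57124253 (minus strand), chr12:85473640-85473889 (plus strand) and chr1:134079156-134079405 (minus strand).
Nr4a2: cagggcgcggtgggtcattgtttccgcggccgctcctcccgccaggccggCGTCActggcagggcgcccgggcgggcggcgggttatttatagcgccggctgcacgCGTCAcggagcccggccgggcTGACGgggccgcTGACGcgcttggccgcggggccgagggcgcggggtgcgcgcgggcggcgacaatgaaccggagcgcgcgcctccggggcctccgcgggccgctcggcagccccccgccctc
Fos: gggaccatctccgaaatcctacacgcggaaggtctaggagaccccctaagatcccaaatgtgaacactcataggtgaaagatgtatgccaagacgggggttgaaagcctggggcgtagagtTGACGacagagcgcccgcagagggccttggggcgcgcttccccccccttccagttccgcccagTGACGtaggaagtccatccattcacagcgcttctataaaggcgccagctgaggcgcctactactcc
Btg2: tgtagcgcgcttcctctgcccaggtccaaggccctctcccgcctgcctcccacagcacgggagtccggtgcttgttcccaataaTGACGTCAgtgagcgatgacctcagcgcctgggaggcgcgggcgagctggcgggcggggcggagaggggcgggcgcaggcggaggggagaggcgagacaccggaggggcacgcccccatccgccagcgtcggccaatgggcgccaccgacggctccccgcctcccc
The core letters occur 4 times in the Nr4a2 window, 2 times in that of Fos, and in Btg2 once on each strand within 1 full element. A search of both strands found TGACG in 17.8% of all 32851 promoter windows of this length and in those of 12 of the 20 immediate early genes with a window (60%), and TGACGTCA, which contains TGACG, in 1.55% of all and in 2 of the 20 genes. A match describes letters in a window and not a site in use.

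Markers of blood and choroid plexus had the largest medians of the marker lists, with 1 called gene between them. In bulk tissue, more cells of a type and more RNA per cell cannot be told apart. Of 9 tested blood markers 8 were higher (median log2 fold change 0.678), 5 were separated, all higher, against 3.47% of all genes, and 1 was called, against 0.214% of all genes called higher. The summed TPM of the blood list was 2647.9, 2286.4 and 2382.9 in control and 4089.5, 3192.3 and 3445.8 in stress mice, without overlap.

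The globin genes carried this sum. Hba-a1, an alpha globin, was at 355, 252 and 274 in control and 564, 477 and 446 in stress mice (0.76 ± 0.3). Hbb-bs, the adult beta globin, was at 1010, 804 and 863 against 1740, 1250 and 1450 (0.72 ± 0.37). Alas2, the erythroid enzyme that starts haem synthesis, was the called member and is named here after its value was seen, at 7.16, 5.9 and 8.15 against 10.9, 13.4 and 11.0 (0.7 ± 0.22; read pairs 0.76). Every stress mouse was above every control mouse for Hba-a1, Hba-a2, Hbb-bs, Hbb-bt and Alas2, while Bpgm, an enzyme that sets the oxygen affinity of haemoglobin in red cells, gave 0.06. The neutrophil genes S100a8 and S100a9 overlapped between groups. Within ethanol exposure the globin genes and Alas2 moved by -0.23 to 0.08, with no separation of the groups, and the list sum there ran from 3719.9 to 7515.8 without and 3064.7 to 7151.8 with separation.

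Choroid plexus markers varied widely from mouse to mouse. All 18 tested were higher after separation, with a median of 0.858, and 5 were separated against 3.47% of all genes, but none was called (0.332% of all genes). Their sum was 1725.2, 908.6 and 2422.2 in control and 2381.1, 6402.2 and 2076.8 in stress mice, where stress mouse 2 stood far above the other two and control mouse 3 above stress mice 1 and 3. Ttr had a log2 fold change of 1.15 with an SE of 1.57. Kcnj13, a potassium channel, was at 8.01, 5.32 and 11.7 against 12.2, 40.2 and 14.6 (1.23 ± 1.06) and Folr1, a folate receptor, at 16.9, 10.4 and 17.6 against 21.7, 62.7 and 18.9 (0.99 ± 1.15). Both are among the genes of mean 10 or more with the largest separated change, next to Ctrc, Gm9157 and Cox8b, and Cox8b, a respiratory subunit outside the marker list, was likewise highest in stress mouse 2, at 7.76, 1.56 and 8.05 against 10.3, 23.7 and 9.9 (1.4 ± 1.23). Without stress mouse 2 the list median was 0.363. In ethanol mice the sum ran from 199.5 to 4281.4 and in ethanol + stress mice from 407.6 to 8122.2, so that mice of the same group differed more than 10-fold.
Ependymal markers had a median of 0.268 with no call and 2 of 12 genes separated, both higher, against 0.332% and 3.47% of all genes, and Igf2, a growth factor of choroid plexus and meninges, was at 18.9, 14.2 and 17.3 against 19.4, 27.4 and 24.7 (0.49 ± 0.17). The part of blood and choroid plexus tissue in the other differences was not tested.

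**Figure D3:**
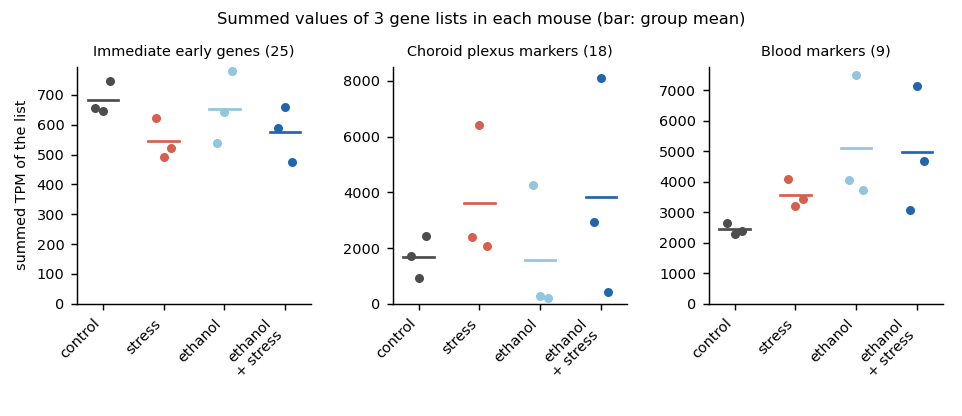
Each point is the summed TPM of a gene list in 1 mouse, by group, with a bar at the mean of 3 mice and every y axis starting at 0. Stress and control mice do not overlap for the immediate early genes or for blood, and choroid plexus sums spread widely within every exposed group.

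Marker lists of the other cell types lay near the median of all genes. The 13 lists besides these and CA2, from dentate granule cells and interneurons to astrocytes, microglia, endothelium and neighbouring brain regions, had medians between -0.057 and 0.074, and CA2 pyramidal cells 0.124. Of 262 marker genes tested, 2 were called against 0.332% of all genes, Alas2 and Nr4a2, the latter also being a cortical marker, and 24 (9.16%) were separated against 6.58% of all genes. Microglia, which are often examined after early stress, had 15 of 24 markers higher with a median of 0.026, and astrocytes 7 of 23 with a median of -0.017. Adult neurogenesis genes had a median of -0.025 over 26 genes.

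The lists of synaptic genes, which do not hold Cplx3, had medians near 0. Of 25 ionotropic glutamate receptor genes 19 were lower, with a median of -0.034 and a range of -0.12 to 0.39, and of 10 metabotropic receptors 8 were lower, with a median of -0.077. Grm7, a presynaptic metabotropic receptor, was at 44.9, 42.2 and 40.9 in control and 35.3, 39.2 and 37.3 in stress mice (-0.19 ± 0.12). GABA synthesis, transport and receptor genes had a median of -0.023 over 25 genes, vesicle release genes -0.011 over 33 and postsynaptic scaffolds -0.009 over 27, and none of these lists held a called gene, against 0.332% of all genes. Kcns3, a modulatory potassium channel subunit, had the smallest p of 40 voltage-gated potassium channel genes, at 10.8, 10.8 and 11.4 against 8.37, 7.99 and 9.33 (-0.34 ± 0.12; read pairs -0.35), with clearly separated mice.

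Immune lists moved in no common direction. Of 29 interferon response genes 21 were lower, with a median of -0.072 and 3 separated lower and 1 higher, against 3.11% and 3.47% of all genes. Ifit1, which binds foreign RNA, was at 2.26, 2.1 and 2.15 in control and 1.39, 1.13 and 1.49 in stress mice (-0.55 ± 0.22; read pairs -0.59). Of 48 cytokines, chemokines and receptors 28 were higher with a median of 0.027, and the ciliary neurotrophic factor receptor Cntfr had the smallest p (0.26 ± 0.14). H2-Ab1, a class II antigen presentation chain, was at 1.67, 2.11 and 0.982 against 2.62, 2.48 and 2.65 (0.6 ± 0.22), while its list of 25 genes had a median of 0.008.

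Chromatin genes were of interest because the study measured DNA methylation in the same design. Of 20 DNA methylation genes 1 was called, Mbd5, against 0.332% of all genes, and 11 were higher. Of 49 histone methyltransferases and demethylases 23 were higher and 26 lower (median -0.019), and Kmt5c, which trimethylates histone H4, had the smallest p, at 2.38, 3.25 and 2.57 against 4.54, 6.29 and 3.4 (0.67 ± 0.26; read pairs 0.32). The genes that the study paired with a promoter change on these samples, so that they are no independent evidence, were not called as sums over their transcripts, whereas the study paired single transcripts: Arpp21 gave -0.04 ± 0.18, Mark2 0.12 ± 0.1, Rab33b 0.07 ± 0.15 and Slc39a11 -0.05 ± 0.1.

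Circadian clock, heat shock and monoamine genes had medians of -0.003, -0.015 and -0.008. The co-chaperone Bag3 was separated lower, at 2.71 to 3.46 in control and 1.82 to 2.36 in stress mice (-0.4 ± 0.16; read pairs -0.43). The 13 mitochondrially encoded genes had a median of 0.022. Some families leaned to 1 sign by small shifts and without any call, where 51% of all genes were higher. Higher were 81 of 86 cytosolic ribosomal protein genes (median 0.054), 50 of 64 replication-dependent histone genes (0.138), 75 of 97 nuclear respiratory complex genes (0.037) and 55 of 78 mitochondrial ribosomal protein genes (0.033). Lower were 24 of 32 cyclases and phosphodiesterases (-0.047) and 30 of 48 axon guidance genes (-0.034). Of the largest families, 122 of 257 solute carriers and 182 of 365 zinc finger genes were higher. In all, 532 genes of the 20 function lists were tested, of which 2 (0.376%) were called and 35 (6.58%) separated, against 0.332% and 6.58% of all genes.

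**Figure D4:**
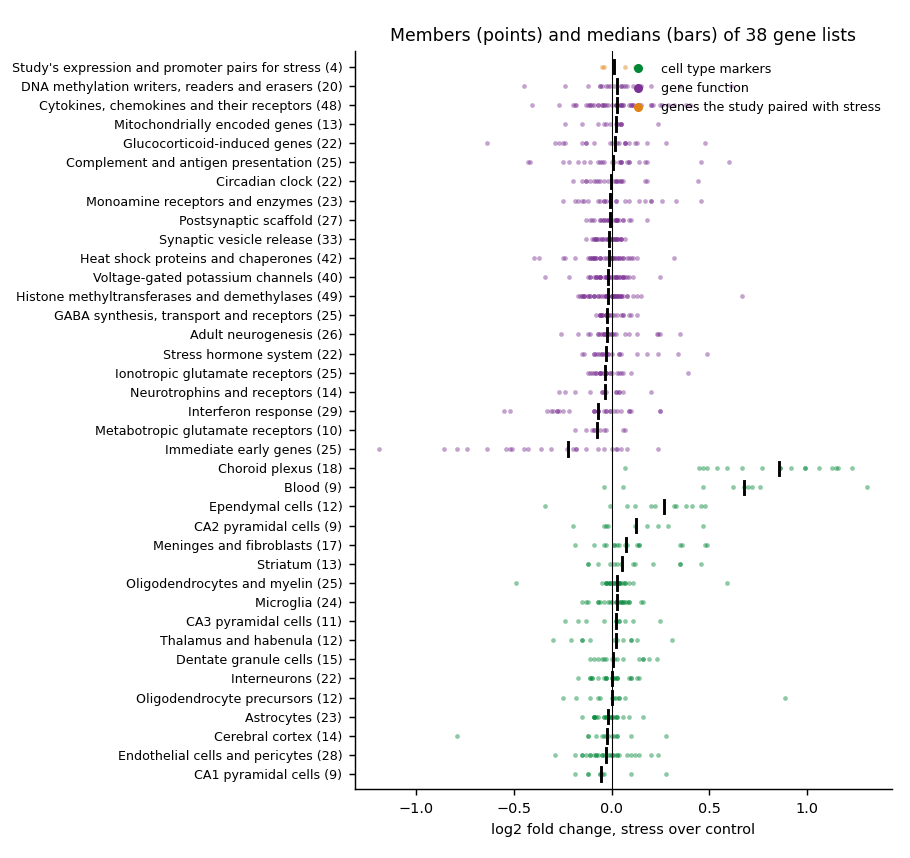
Each point is the log2 fold change of stress over control of 1 gene, black bars are list medians, and the number of genes tested stands after each name. The lists of immediate early genes, choroid plexus and blood lie apart from 0, and the others center within 0.08 of it except ependymal and CA2 markers.

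Separation in mice of ethanol-drinking dams gave a second comparison that shares no mouse with the first. There, 77 genes were called (0.533%) and 811 were separated (5.61%). Without ethanol mouse 2 or ethanol + stress mouse 1 the count of called genes was 194 or 214. The test of the difference between the separation effects called 45 of 14455 genes (0.311%), and 76 or 89 without the one or the other of these mice, none of the 45 with an adjusted p under 0.05. Of the 48 genes called in stress against control, 21 changed in the same direction with ethanol (43.8%), against 56.1% of all genes tested and 555 of the 951 separated genes (58.4%). The median log2 fold change of the called higher genes was 0.87 without and -0.06 with ethanol, and the called lower genes of -0.79 and -0.02. Across all genes the log2 fold changes of the comparisons correlated at r = 0.103, as a description, since genes are not independent replicates.

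Genes called in both comparisons numbered 3, and all moved the same way: Cplx3, 4930469K13Rik and the pseudogene Gm14269 (1.89 and 2.69). Cplx3 was at 5.29 to 5.78 in stress against 7.52 to 9.23 in control mice, and its log2 fold change with ethanol was -0.83. 4930469K13Rik was at 0.484, 2.54 and 2.61 in control and 0.442, 0 and 0.429 in stress mice, and fell by 1.45 with ethanol. Both calls in stress against control were lost without any 1 of 5 of the 6 mice and by read pairs, and Cplx3 stayed called in 7 of 19 alternatives and 4930469K13Rik in 9 of 18. Megf6 (0.75 and 0.52) and Pigz (-0.47 and -0.39) also kept their direction, with p under 0.05 with ethanol. Fos gave -1.19 and -1.04, Arc -0.74 and -0.36, Nr4a1 -0.86 and -0.63, Junb -0.52 and -0.56, Dusp1 -0.64 and -0.68 and Btg2 -0.51 and -0.43, and the list of immediate early genes had medians of -0.225 and -0.165, while its called member Nr4a2 gave 0.01 with ethanol. Medians without and with ethanol were 0.858 and 0.874 for choroid plexus and 0.678 and 0.048 for blood markers.

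**Figure D5:**
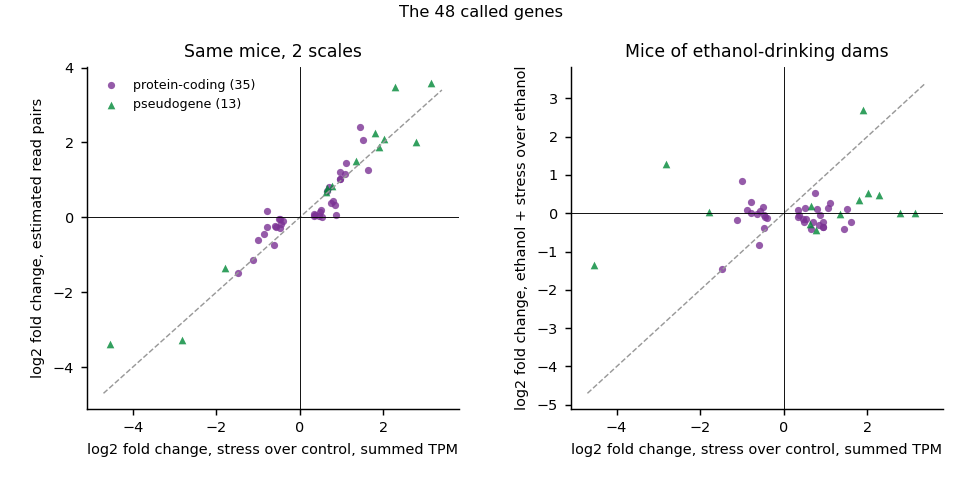
Each point is 1 of the 48 called genes, with the log2 fold change of stress over control in summed TPM on both x axes and, on the y axes, that in estimated read pairs of the same mice with a pseudocount of 0.5 pairs (left) and that of ethanol + stress over ethanol (right). The dashed line marks equal values. On the left, 17 of the 48 genes, all with several transcripts, have less than 1/2 of their change in TPM, and on the right the genes scatter around 0.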

How the data were processed

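RNA was taken from the hippocampus of 12 male mice, and stranded libraries were made after rRNA depletion. According to the paper's methods and the labels, the authors used kallisto and sleuth to quantify Ensembl transcripts of the mouse (GRCm38, mm10) from read pairs; versions are not given in the sources used here. The deposited values are TPM per transcript scaled between libraries, and thus a signal, not read counts. Of 115270 transcripts, 113580 were matched to GENCODE vM21 and summed to 35580 genes; unmatched ones held 0.518% to 0.58% of a library's values.

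Genes with a mean of at least 1 entered limma 3.58.1 (R 4.3.3) on a scale of log2(TPM + 0.5) (lmFit, eBayes with trend, 4 groups, two-sided), called at an unadjusted p under 0.01, and adjusted by Benjamini-Hochberg over all 14455. Read pairs were estimated from the steps of low values, of which 79.6% to 83.9% per library came out whole within 0.1. That share was taken over genes with 1 transcript of intermediate length and does not cover short transcripts such as those of Gm48848 or Nr4a2. Transcripts near or below the fragment length were given a fixed minimum length, so that their read pairs are the least certain. Scaled to library size, with a pseudocount of 0.5 or of 0.5 pairs, read pairs form alternatives chosen after seeing the data. They are estimates, and intervals cover no error of that estimation. Python 3.11.15, pandas 2.3.3, numpy 2.4.6 and matplotlib 3.10.9 were used.

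The replicate numbers were not used to pair the mice, since the labels do not say whether same-numbered mice are related. Named genes are the 12 higher and 12 lower called, separated protein-coding genes with the smallest p, the smallest p of all, 3 called pseudogenes per direction, the called or smallest-p member of each function list, 7 usual readouts of early stress, 4 genes of the study, and the 5 largest separated changes per direction at a mean of 10 or more. Some genes that these rules name are not reported here. The genes described and the lists were chosen with earlier results of these data known. Other alternatives were pseudocounts, filters, scalings, removal of a length trend, eBayes without trend, only the groups compared, a replicate block and leaving out each mouse.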

Additional observations from a re-analysis of the deposited data

Results flagged for a closer look

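For 13 of the 48 called genes, of which the 8 that the naming rules chose are given here, the effect of separation differed between mice without and with prenatal ethanol, by the difference term of the same limma model at an unadjusted p under 0.01; no difference had an adjusted p under 0.05, and each adjusted p was 1. Over all genes that threshold was passed by 0.311%. These genes were chosen for their change in stress against control, which is part of the difference tested. For Mbtps2 the log2 fold change was 0.48 without and -0.22 with ethanol, a difference of -0.7, with ethanol mice at 11.2 to 12.3 and ethanol + stress mice at 9.79 to 10.2. Tmem253 gave 1.62 and -0.22, a difference of -1.83, with all 6 ethanol-exposed mice at 3.12 to 4.78, above the control mice at 0.233 to 0.741. Gm21860 and Gm21748, identical in value, gave 0.95 and -0.35, a difference of -1.3. Mbd5 gave 0.35 and -0.1, a difference of -0.45, and Fancm 0.53 and -0.15, a difference of -0.68. Ifitm7 turned from -1 to 0.83, a difference of 1.83, at 1.64 to 3.76 in control, 1.08 to 1.16 in stress, 0.812 to 2.13 in ethanol and 2.39 to 3.07 in ethanol + stress mice. The pseudogene Gm13597 turned from -2.83 to 1.29, a difference of 4.12, on at most 7.53 read pairs in the control and stress mice. Rps6kb2, named after its value was seen, gave a difference of 1.09.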

How the results depend on the processing

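With other filters, the counts of called genes for stress against control, ethanol + stress against ethanol and their difference were 94, 123 and 85 at 0.1 or more in 6 libraries, 21, 46 and 26 at a mean of 5 or more, and 127, 186 and 131 with no filter, where 1, 5 and 3 genes had an adjusted p under 0.05 and 1465 genes were separated. With only the groups compared, 75 and 47 genes were called and 1 (Gm48848) and 2 passed adjustment. Rescaling to a common total left 34, 49 and 30 genes called, and 9 of 24 named coding genes lost their call. Estimated read pairs called 21, 53 and 20 genes, and 21, 47 and 17 with a pseudocount of 0.5 pairs. Without 1 mouse, 45 to 64, 52 to 214 and 35 to 89 genes were called, 0 to 1, 0 to 2 and 0 to 2 passed adjustment, and 1999 to 3008 genes were separated, since fewer mice are compared. The share of separated genes that were higher went from 52.7% to 43.4% on rescaling. Of 24 named coding genes, 3 stayed called without each of the 6 mice in turn, each left-out mouse ended between 10 and 12 of the calls, and 5 were called by read pairs. Of the named called genes Rps6kb2 changed sign, by read pairs; the cause of the lost calls was not tested. The labels do not say whether same-numbered mice are related. Their deviations correlated at 0.039, -0.077 and -0.002, which cannot decide it, since sibs of an inbred strain need not correlate. With the replicate block 48, 73 and 44 genes were called, and Entpd1, Nr4a2, Pigz, Slc11a2 and Cplx3 of the 24 genes lost their call. Genes counted by few read pairs limit what can be seen at this depth.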
